A study of Homo sapiens with 30 samples.

Results

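The genes described here encode the subunits of the oxidative phosphorylation complexes, together with a few assembly factors and regulators that share their names. They were taken as every gene-level transcript cluster (a group of exon probes that the array maker assigned to 1 gene) whose single gene symbol begins with NDUFA, NDUFB, NDUFC, NDUFS, NDUFV, UQCR, COX4, COX5, COX6, COX7, COX8 or ATP5, or is SDHA, SDHB, SDHC or SDHD. The rule found 72 clusters for 71 symbols among 22011 clusters, and the rule uses symbols and no measured value. Another 28 clusters carried several symbols of which at least 1 fits the rule, and these were left out. Of the 72 member clusters, 63 were classed here as subunit genes, among them COX7A2L and both COX7A2 clusters. The others are the complex I assembly factors NDUFAF1 to NDUFAF7, the ATP synthase inhibitor gene ATP5IF1 and the pseudogene UQCRBP1.

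Oxidative phosphorylation is the mitochondrial route by which electrons from NADH and succinate pass along complexes I to IV to oxygen, while complex V, the ATP synthase, uses the proton gradient they build. The subunits measured here are encoded in the nucleus, made in the cytosol and imported, and they assemble with subunits that the mitochondrial genome encodes. Their promoters are known for binding sites of nuclear respiratory factors and ETS family proteins, and NELF, the negative elongation factor, is known for holding RNA polymerase II shortly after it starts.

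T47D, an established luminal breast cancer line that expresses the oestrogen receptor, was transfected with siRNA against 1 of 4 NELF subunits or against luciferase as control. Each dish received 10 nM siRNA with a lipid reagent, had its medium changed after 48 h and was harvested 48 h after that. The groups were siNELF-A, siNELF-B, siNELF-C, siNELF-E and control siRNA, with 3 arrays each, and 1 ug of RNA depleted of ribosomal RNA went onto Affymetrix human exon arrays. In the series text the arrays of a group are technical repeats, so the p-values below measure the spread between repeats of a transfection and not between cultures, and all groups come from 1 cell line. A lower array level in bulk RNA cannot be told apart between fewer expressing cells and less RNA per cell.

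The target of each siRNA was read first. NELFCD, the target of siNELF-C, had gene-level values of 5.92, 5.61 and 5.97 on siNELF-C arrays, against 9.33, 9.19 and 9.23 on control arrays. NELFA, read as the median of 15 exon-level probe sets, had 5.39, 5.58 and 5.92 on siNELF-A arrays, against 6.24, 6.14 and 6.34 on control arrays. NELFE, likewise the median of 15 probe sets, had 4.66, 4.70 and 4.60 on siNELF-E arrays, against 7.29, 7.22 and 7.27 on control arrays. Each target was lower on all 3 of its own arrays than on any control array. The siNELF-B knockdown has no such check, since NELFB is not analysed here. Of the markers, 13 of 13 luminal genes lay above the 40th percentile of cluster means, 2 of 2 basal genes (KRT14 and EGFR), 3 of 7 mesenchymal, 2 of 5 leukocyte and 0 of 4 endothelial genes.

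Values are log2 robust multi-array average (RMA) levels. A level above 3.90, the 40th percentile of cluster means, is called bright here, and 58 of the 72 members were bright. The siNELF-B arrays stood apart from each other. Their pairwise correlations over all clusters ran from 0.917 to 0.973, against 0.984 to 0.99 within the other groups, and siNELF-B array 2 correlated more closely with the controls (mean 0.984) than with its own group (0.945). Array 1 did so by less (0.971 with the controls and 0.962 with its group). Array 3 had the lowest mean correlations of the 15 arrays, 0.934 with its group and 0.92 with the controls. The arrays also differed in width. The interquartile range of all values was 3.57, 4.02 and 3.12 on siNELF-B arrays, against 4.04, 3.95 and 4.12 on control arrays. Its part in the siNELF-B results was not tested. The main siNELF-B counts, the medians of bright members and most named member calls are given with and without array 2. Other siNELF-B values, among them unadjusted counts and the lists of related genes, are given on all 3 arrays.

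The promoters of the 5 members called against control are shown here. ATP5MC2 has 3 windows, of which the 1 that holds a match is printed. RefSeq's promoter table (build GRCh38.p14) matched 59 of the 71 symbols with 73 windows, each running from 250 bases before to 50 bases after a gene's start. Capitals mark matches to any of 5 motifs searched on both strands.
NDUFB1 (chr14:92121657-92121956, minus strand): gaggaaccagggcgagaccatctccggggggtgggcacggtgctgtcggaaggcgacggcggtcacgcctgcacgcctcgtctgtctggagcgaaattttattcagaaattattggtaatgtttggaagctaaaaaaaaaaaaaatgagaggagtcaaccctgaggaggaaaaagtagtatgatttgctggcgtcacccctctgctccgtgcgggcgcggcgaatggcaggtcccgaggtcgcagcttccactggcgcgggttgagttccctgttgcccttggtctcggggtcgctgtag
ATP5MC1 (chr17:48892537-48892836, plus strand): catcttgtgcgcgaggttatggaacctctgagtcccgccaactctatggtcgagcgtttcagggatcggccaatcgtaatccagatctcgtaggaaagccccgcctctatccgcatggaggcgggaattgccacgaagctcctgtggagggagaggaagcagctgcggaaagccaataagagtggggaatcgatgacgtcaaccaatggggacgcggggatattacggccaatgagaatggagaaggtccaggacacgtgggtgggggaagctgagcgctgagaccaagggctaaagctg
ATP5MC2 (chr12:53676034-53676333, minus strand): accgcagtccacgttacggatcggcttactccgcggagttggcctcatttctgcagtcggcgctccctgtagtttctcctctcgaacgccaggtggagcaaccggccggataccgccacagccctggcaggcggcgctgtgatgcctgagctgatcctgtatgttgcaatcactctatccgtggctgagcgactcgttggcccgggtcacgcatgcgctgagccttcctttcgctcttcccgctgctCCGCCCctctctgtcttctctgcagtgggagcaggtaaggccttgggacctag
NDUFAF4 (chr6:96897842-96898141, minus strand): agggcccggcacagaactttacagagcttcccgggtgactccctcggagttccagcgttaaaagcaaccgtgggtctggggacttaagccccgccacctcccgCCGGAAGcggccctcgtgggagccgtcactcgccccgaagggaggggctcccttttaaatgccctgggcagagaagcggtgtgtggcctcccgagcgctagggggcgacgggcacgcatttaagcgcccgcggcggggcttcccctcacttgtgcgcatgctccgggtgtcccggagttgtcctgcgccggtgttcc
NDUFS3 (chr11:47578824-47579123, plus strand): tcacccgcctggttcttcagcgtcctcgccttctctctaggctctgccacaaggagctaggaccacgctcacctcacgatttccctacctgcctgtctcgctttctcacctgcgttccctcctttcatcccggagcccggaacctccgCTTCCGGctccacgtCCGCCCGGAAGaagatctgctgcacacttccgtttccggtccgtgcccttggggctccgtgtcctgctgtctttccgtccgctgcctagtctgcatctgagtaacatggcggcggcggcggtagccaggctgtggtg
NDUFB1 and ATP5MC1 have no match in these windows. ATP5MC2 has 1 match, to the GC box, in 1 of its 3 windows. NDUFAF4 has 1 match to the ETS motif CCGGAAG, and NDUFS3 has 2, 1 on each strand, the second overlapping a match to the GC box GGGCGG. Among the 73 member windows, the NRF1 motif (GCGC, any base, then TGCGC) was found in 14 (19.2%), against 5.78% of all 35116 windows in the table. The ETS motif was found in 20.5% of member windows against 10.3% of all windows, the YY1 motif AAGATGGC in 13.7% against 2.89%, the GC box in 58.9% against 45.0%, and the TATA box TATAAA in 9.59% against 11.5%. These shares describe letters in fixed windows and say nothing of binding. A link between motif matches and the direction of change was not tested.

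On control arrays the bright members ranged from COX6A2, the heart and muscle form of cytochrome c oxidase subunit 6A, at 4.45 to ATP5F1C, the gamma subunit of the ATP synthase stalk, at 10.69. Next below ATP5F1C came ATP5F1A, the alpha subunit of the catalytic head, at 10.64. Levels of different genes rest on different probes and are not ranked further. Of the 6 isoform genes of complex IV that are known from heart, muscle, lung or testis (COX4I2, COX6A2, COX6B2, COX7A1, COX7B2 and COX8C), only COX6A2 was bright. None of the 6 was called in any knockdown, and their log2 changes ran from -0.06 to 0.66.

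Calls required 1.5-fold or more and a limma p below 0.05 once adjusted by Benjamini-Hochberg across the 22011 clusters. Under this rule few members moved against control. In siNELF-A, 2 of 72 members rose (2.78%), against 0.495% of all clusters, and 1 fell (1.39%), against 2.83%. In siNELF-B, 0 members rose, against 0.204% of all clusters, and 2 fell (2.78%), against 4.19%. In siNELF-C, 0 rose against 0.922% and 0 fell against 5.3%. In siNELF-E, 1 rose (1.39%), against 1.44%, and 0 fell, against 4.04%. In the average of the 4 knockdowns, 0 rose against 0.35% and 0 fell against 4.46%. Dropping the fold minimum added no call in these 5 comparisons. At an unadjusted p below 0.05, limma counted 7 members higher in siNELF-A (4.51% of all clusters) and 2 lower (12.7%). It counted 2 higher in siNELF-B (4.47%) and 31 lower (25.2%), and 1 higher in siNELF-C (7.54%) and 9 lower (17.5%). In siNELF-E 7 were higher (5.41%) and 4 lower (11.2%), and in the average 4 were higher (5.31%) and 3 lower (18.3%). The lower members of siNELF-B, 31 of 72, were the largest of these 10 counts. The calls of siNELF-A and siNELF-E were few enough to turn on single arrays. Without siNELF-A array 3, control array 1 or control array 2, 0 members rose in siNELF-A. Without siNELF-B array 2 or 3, 4 did, against 0.959% of all clusters without array 2. Without each of the others between 1 and 3 did. The ATP5MC2 call in siNELF-A was lost without any 1 of the control arrays and without siNELF-A array 1 or 2. In siNELF-E 0 rose without control array 1 or 2 or siNELF-E array 1 or 2, and 2 rose without siNELF-E array 3. Without control array 3 the 1 call in siNELF-E was not ATP5MC1 but ATP5PB, whose cluster is dim.

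Below the threshold, the members' changes leaned differently in the 4 knockdowns. The median log2 change of the 58 bright members was 0.19 in siNELF-A, where that of all 13206 bright clusters was -0.12, and 0.06 in siNELF-E, where it was -0.06. It was -0.48 in siNELF-B, where all bright clusters had -0.39, and -0.29 in siNELF-C, where they had -0.23. The members thus sat above the other bright clusters in siNELF-A and siNELF-E and slightly below them in siNELF-B and siNELF-C. Without siNELF-B array 2 the siNELF-B median was -0.75, where all bright clusters had -0.59, and without array 3 it was -0.29, where they had -0.17. In siNELF-A, 15 of the 58 bright members lay below 0, against 62% of all bright clusters. In siNELF-B, 53 of the 58 lay below 0, against 75.4%, and 55 did without array 2, against 77%. In siNELF-C the number was 50, against 68.1%, and in siNELF-E it was 21, against 56.4%. These are descriptions, and no test was made over the members.

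**Figure D1:**
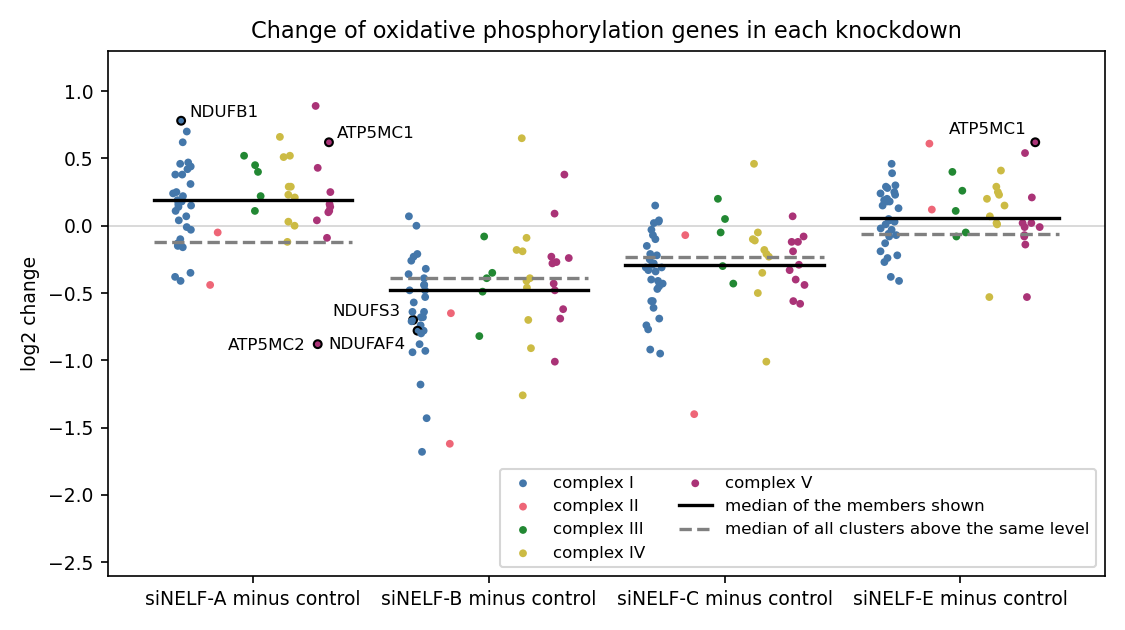
Log2 change of the 58 bright members (vertical axis) in each knockdown against control, coloured by respiratory complex, with black rings and names on members called by limma. The solid line is the members' median, from -0.48 in siNELF-B to 0.19 in siNELF-A, and the dashed line is the median of all 13206 bright clusters.

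Under the scalings given here, the sign of the members' own median changed in siNELF-B and siNELF-C but not in siNELF-A and siNELF-E. Over all 72 members, the median change on the deposited scale was 0.15 in siNELF-A and 0.10 in siNELF-E, and -0.44 in siNELF-B and -0.23 in siNELF-C. After quantile normalization, which gives every array the same distribution, it was 0.29 in siNELF-A and 0.17 in siNELF-E, and -0.01 in siNELF-B and 0.01 in siNELF-C, with a median over all clusters of 0.04 or 0.05. The members' median therefore stayed above 0 in siNELF-A and siNELF-E, and the lower medians of siNELF-B and siNELF-C went to about 0. Centring each array on its 75th percentile gave 0.37 in siNELF-A, against 0.19 over all clusters, and 0.24 in siNELF-E, against 0.11. It gave 0.02 in siNELF-B, against 0.32, and 0.12 in siNELF-C, against 0.27. Relative to all clusters, a set not matched to them for level, the members were then above in siNELF-A and siNELF-E and below in the other pair. The calls of siNELF-A followed the scale as well. After quantile normalization 10 members rose, against 1.59% of all clusters, and 0 fell, against 3.2%, where 2 rose and 1 fell on the deposited scale. The 10 were ATP5MC1, ATP5PD, COX5B, COX6C, NDUFAB1, NDUFB1, NDUFB2, UQCR10, UQCR11 and UQCRQ. As deposited, the medians of their exon-level probe sets changed in siNELF-A by 0.05 for UQCRQ up to 0.93 for NDUFB1, and none passed. ATP5PD, whose cluster equals 1 probe set, changed by 0.08 on that median (limma adjusted p = 0.925).

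**Figure D2:**
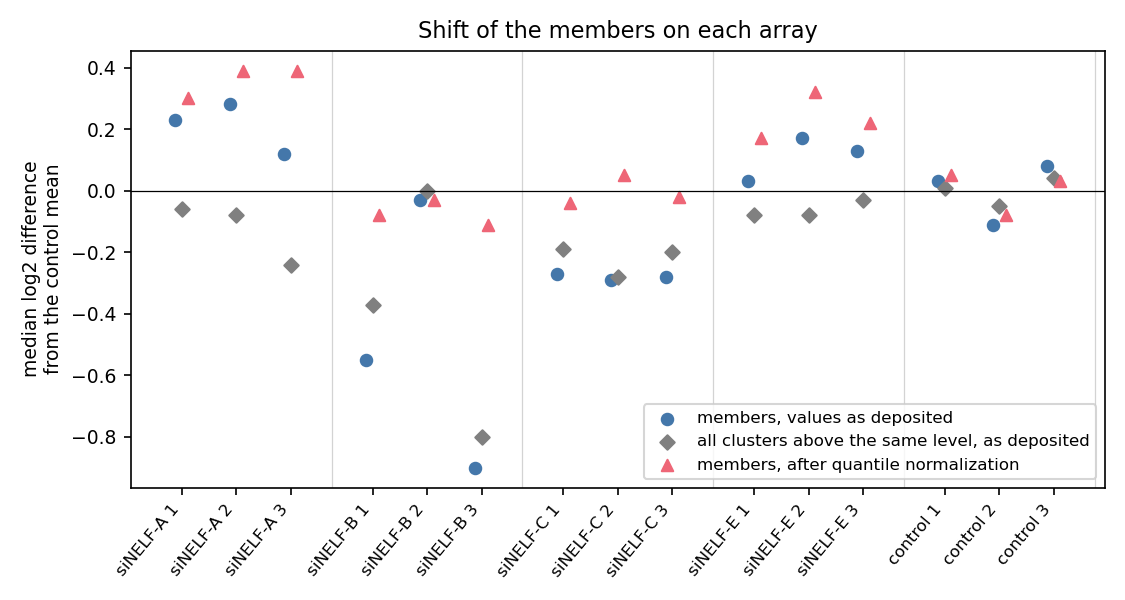
Median log2 difference from the mean of the 3 control arrays (vertical axis) on each of the 15 arrays (horizontal axis), for the 58 bright members on the deposited scale (circles) and after quantile normalization (triangles), and for all bright clusters on the deposited scale (diamonds). On siNELF-B arrays 1 and 3 the members sit at -0.55 and -0.90 as deposited and at -0.08 and -0.11 after quantile normalization, while the 3 siNELF-A arrays sit above 0 on both scales.

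Array by array, the bright members' median difference from the control mean was 0.23, 0.28 and 0.12 on siNELF-A arrays, against 0.03, -0.11 and 0.08 on control arrays. It was -0.55, -0.03 and -0.90 on siNELF-B arrays and -0.27, -0.29 and -0.28 on siNELF-C arrays. It was 0.03, 0.17 and 0.13 on siNELF-E arrays. The plot of the shift on each array shows that siNELF-B array 2 lay among the controls, whereas arrays 1 and 3 lay lowest of the 15. All bright clusters on those 2 arrays were shifted too, by -0.37 and -0.80.

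Some members lay beyond all controls on all 3 arrays of a knockdown without passing limma's threshold. In siNELF-A, 26 of 72 members (36.1%) were higher on all 3 arrays than on any control array, against 12% of all clusters, and 4 (5.56%) were lower on all 3, against 22.5%. In siNELF-B, 19 (26.4%) were lower throughout, against 16.6%, and 0 were higher, against 5.57%. On siNELF-B arrays 1 and 3 alone, 53 (73.6%) were lower than every control array, against 42.2% of all clusters. In siNELF-C, 30 (41.7%) were lower, against 31.3%, and 6 (8.33%) were higher, against 15.1%. In siNELF-E, 11 (15.3%) were higher, against 13.5%, and 7 (9.72%) were lower, against 21.1%. Among the counts over all 3 arrays of a knockdown, the widest gap from the background share was the siNELF-A count of higher members. Those 26 were spread over 4 complexes, with 12 of complex I, 4 of complex III, 6 of complex IV and 4 of complex V.

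Complex I, the NADH dehydrogenase, gave 34 of the clusters, of which 30 were bright. In siNELF-A, 21 of the 30 lay above 0, where 62% of all bright clusters lay below it. In siNELF-B, 28 of the 30 lay below 0, against 75.4% of all bright clusters. Without siNELF-B array 1, 2 or 3 the number was 28, 30 or 27, against 75.3%, 77% and 68.7%. NDUFB1, an accessory subunit of the membrane arm, had 6.79, 6.37 and 6.67 on siNELF-A arrays, against 5.74, 5.51 and 6.24 on control arrays. All 3 siNELF-A values lay above all 3 control values. The log2 change was 0.78 (SE 0.184, limma adjusted p = 0.0353), or 1.72-fold. The call was lost without control array 1 or 2, without siNELF-A array 1 or 3, and without any 1 array of siNELF-C or siNELF-E (adjusted p between 0.051 and 0.14). NDUFB1 had 6.36, 6.34 and 6.15 on siNELF-E arrays, where its change of 0.46 did not pass (adjusted p = 0.214), and its changes in siNELF-B and siNELF-C were 0.00 and 0.15. Of its 7 exon-level probe sets, 6 were above 0 in siNELF-A.

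NDUFS3, a core subunit of the arm that reduces ubiquinone, had 8.57, 9.25 and 8.37 on siNELF-B arrays, against 9.33, 9.46 and 9.49 on control arrays. The groups did not overlap, although siNELF-B array 2 came close to the lowest control. Its log2 change was -0.70 (SE 0.178, adjusted p = 0.0463). NDUFAF4, an assembly factor of complex I, had 3.80, 4.52 and 3.86 on siNELF-B arrays, against 4.83, 4.76 and 4.92 on control arrays, without overlap. Its change was -0.78 (SE 0.205, adjusted p = 0.0494). Both calls were lost after quantile normalization, at log2 changes of -0.29 (adjusted p = 0.11) for NDUFS3 and -0.62 (adjusted p = 0.074) for NDUFAF4. Neither call therefore held on both scales. Without siNELF-B array 2 the changes were -0.95 for NDUFS3 (adjusted p = 0.000173) and -1.01 for NDUFAF4 (adjusted p = 0.00121). Without any other single array neither gene was called, with adjusted p up to 0.163 for NDUFS3 and 0.167 for NDUFAF4.

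In the average of the 4 knockdowns, the complex I members with the smallest and largest change were NDUFA10 at 0.00 (adjusted p = 0.991) and NDUFA5 at -0.76 (adjusted p = 0.315), both accessory subunits. NDUFA5 had 5.39, 6.51 and 3.39 on siNELF-B arrays, against 6.08, 6.99 and 7.25 on control arrays, which overlap.

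The siNELF-B count depended on array 2. Without it, 34 of 72 members fell in siNELF-B, against 30.3% of all clusters, and 2 rose, against 3.52%. Both shares rest on 2 arrays. Without any other single array, 0 or 1 member fell in siNELF-B. In siNELF-C, 5 members fell once array 2 of siNELF-B was left out, against 11.9% of all clusters, and 6 without array 3. Leaving out a siNELF-B array does not alter the siNELF-C log2 changes. It alters their p-values, because the model shares 1 estimate of spread per cluster over all groups. The median SD of bright members was 0.435 in siNELF-B and 0.11 in siNELF-C, against 0.5 and 0.142 over all bright clusters. The siNELF-B arrays thus enter the calls of the other knockdowns too. The cause of the spread between siNELF-B arrays was not tested.

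**Figure D3:**
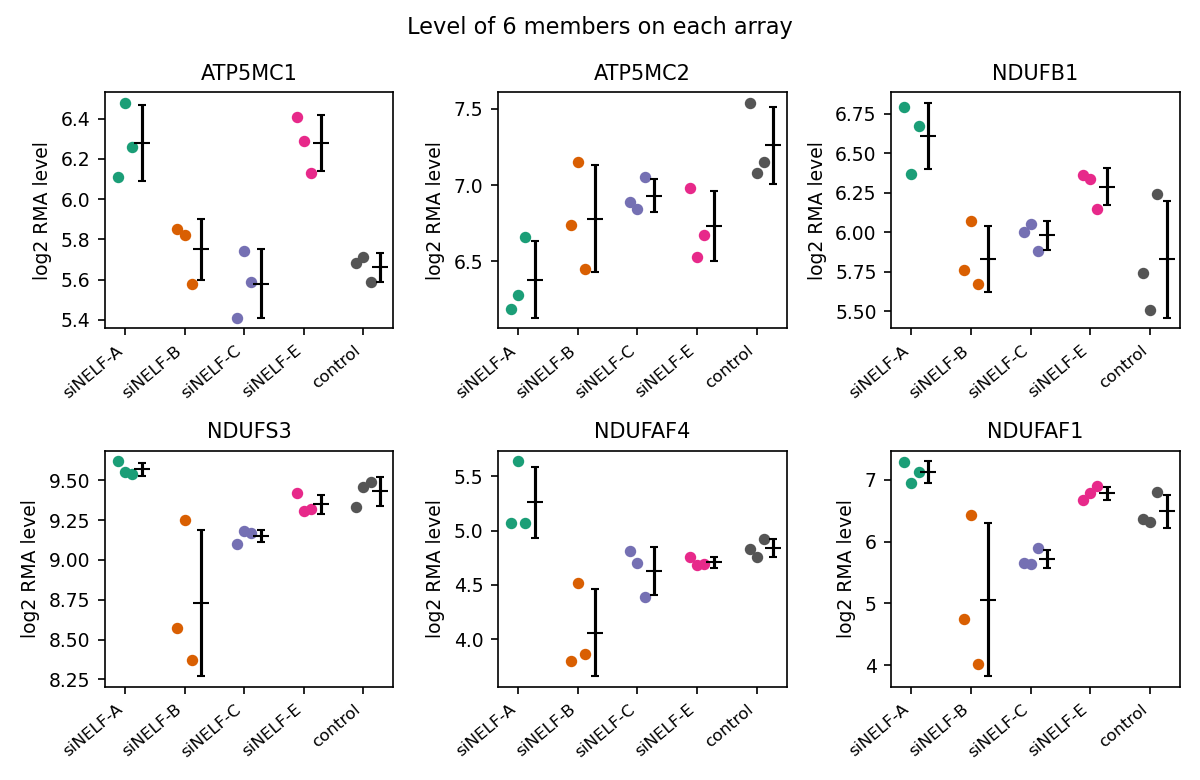
Log2 RMA level (vertical axes) of 6 members on each of the 15 arrays (coloured points), with the group mean and SD beside them (black, n = 3). NDUFAF1, NDUFS3 and NDUFAF4 are low on siNELF-B arrays 1 and 3 and close to the other groups on array 2, while ATP5MC1 is high in siNELF-A and siNELF-E.

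Complex II, succinate dehydrogenase, was represented by SDHA, SDHC and SDHD. SDHA, the flavoprotein, averaged 9.34 ± 0.63 in siNELF-B, against 10.00 ± 0.04 in controls (SD, n = 3 each), and did not pass (log2 change -0.65, limma adjusted p = 0.103). Its means in the other knockdowns lay between 9.93 and 10.12. SDHC, a membrane anchor, had 6.88, 6.81 and 4.51 on siNELF-A arrays, 4.15, 7.34 and 3.15 on siNELF-B arrays and 4.83, 4.43 and 6.05 on siNELF-C arrays. It had 6.68, 7.33 and 7.32 on siNELF-E arrays, against 6.05, 6.63 and 6.83 on control arrays. The SDHC values spread widely within 3 of the groups and no change passed, and its average change of -0.71 had an SE of 0.709 (adjusted p = 0.551). The gene-level SDHC and SDHD clusters each equal 1 probe set of their gene, as set out below.

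Complex III, the cytochrome bc1 complex, had 5 bright members, all above 0 in siNELF-A and all below 0 in siNELF-B. Without siNELF-B array 3, 4 of the 5 lay below 0 in siNELF-B. UQCRQ, a small accessory subunit, had 8.28, 8.22 and 8.05 on siNELF-A arrays, against 7.82, 7.39 and 7.80 on control arrays, without overlap. Its change was 0.52 and did not pass (adjusted p = 0.118). UQCR11, another accessory subunit, had 7.33, 7.13 and 7.28 on siNELF-A arrays, against 6.99, 6.68 and 6.90 on control arrays, again without overlap, with a change of 0.40 (adjusted p = 0.372). In the average of the 4 knockdowns, UQCR11 changed by 0.01 and UQCRQ by 0.20.

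Complex IV, cytochrome c oxidase, had 10 bright members, of which 8 lay above 0 in siNELF-A and 9 below 0 in siNELF-B. Without siNELF-B array 1 or 3 the number below 0 in siNELF-B was 8 or 7. COX5B, one of its nuclear-encoded subunits, had 7.33, 7.61 and 7.18 on siNELF-A arrays, against 6.77, 6.51 and 6.84 on control arrays. The groups did not overlap, and the change of 0.66 stayed short of the threshold (adjusted p = 0.0742). In the average, COX4I1, a subunit present in most tissues, changed by 0.01 (adjusted p = 0.982) and COX6A2 by 0.42 (adjusted p = 0.183). COX6A2 had 4.52, 4.86 and 4.86 on siNELF-A arrays and 5.37, 4.45 and 5.48 on siNELF-B arrays, against 4.51, 4.49 and 4.36 on control arrays, and neither change, 0.29 and 0.65, passed.

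Complex V, the ATP synthase, gave the only member called in more than 1 knockdown against control. ATP5MC1, ATP5MC2 and ATP5MC3 encode the same mature protein, the c subunit of the membrane ring, behind different import sequences. ATP5MC1 had 6.11, 6.48 and 6.26 on siNELF-A arrays and 6.41, 6.29 and 6.13 on siNELF-E arrays, against 5.68, 5.71 and 5.59 on control arrays. Both knockdowns lay wholly above the controls, by 0.62 in siNELF-A (SE 0.14, adjusted p = 0.0292) and 0.62 in siNELF-E (SE 0.14, adjusted p = 0.0192). It had 5.85, 5.82 and 5.58 on siNELF-B arrays and 5.41, 5.74 and 5.59 on siNELF-C arrays, and neither change, 0.09 and -0.08, passed. The 2 comparisons with control share the same 3 control arrays. Both calls were lost without any 1 of these, with adjusted p from 0.0725 to 0.126 in siNELF-A and from 0.0535 to 0.0879 in siNELF-E. The siNELF-A call was also lost without siNELF-A array 2 or 3, and the siNELF-E call without siNELF-E array 1 or 2.

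ATP5MC2 had 6.19, 6.28 and 6.66 on siNELF-A arrays, against 7.54, 7.08 and 7.15 on control arrays. The groups did not overlap, and the change was -0.88 (SE 0.202, adjusted p = 0.032). In the average of the 4 knockdowns it changed by -0.55 (adjusted p = 0.0609), the largest average change of complex V, and ATP5PO, the peripheral stalk subunit OSCP gene, changed least, by 0.00 (adjusted p = 0.993). ATP5MC3 had 8.90, 8.63 and 8.61 on siNELF-A arrays, against 8.59, 8.47 and 8.73 on control arrays, which overlap, with a change of 0.11 (adjusted p = 0.713). In siNELF-A, then, 1 gene-level c-subunit cluster rose, 1 fell and 1 did not pass the test. The ATP5MC2 probe sets changed less than the cluster in siNELF-A, and their median did not pass there, as given below.

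**Figure D4:**
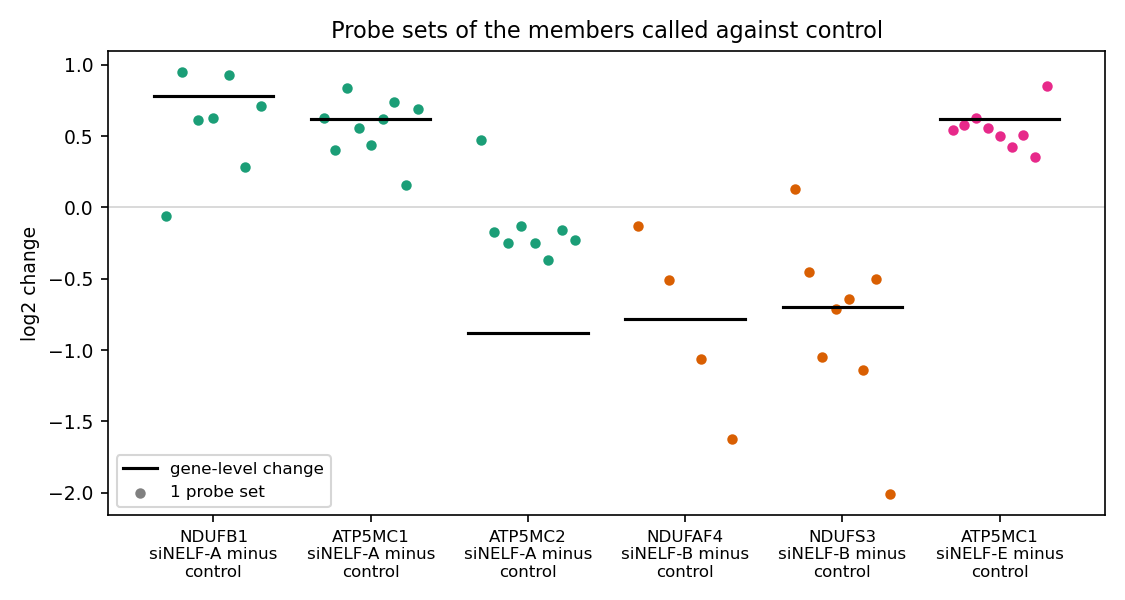
Log2 change (vertical axis) of each exon-level probe set (points) of the members called against control, with the gene-level change as a black line. All 9 ATP5MC1 probe sets lie above 0 in siNELF-A and in siNELF-E, whereas 7 of the 8 ATP5MC2 probe sets lie between -0.37 and 0 and the gene-level line lies below all 8.

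The exon-level table measured the same genes over 582 probe sets. All 9 ATP5MC1 probe sets were above 0 in siNELF-A, from 0.16 to 0.84, and all 9 in siNELF-E, from 0.35 to 0.85. For NDUFS3, 7 of 8 probe sets were below 0 in siNELF-B, and for NDUFAF4 4 of 4. The 8 ATP5MC2 probe sets ran from -0.37 to 0.47 in siNELF-A, and their median level changed by -0.25 (adjusted p = 0.541). That median passed limma's test in siNELF-B at -0.72 (adjusted p = 0.0427) and in siNELF-C at -0.64 (adjusted p = 0.0454). It did not pass in siNELF-E at -0.19 (adjusted p = 0.736). The cluster itself was called only in siNELF-A. Across the 15 arrays the ATP5MC2 cluster correlated with that median at 0.21, a description over arrays that share groups. When each gene was tested on the median of its probe sets, none of the 6 calls against control passed, the nearest being ATP5MC1 in siNELF-A at 0.84 (adjusted p = 0.0528). The direction was the same as at gene level in all 6.

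The gene-level values of several members do not summarise their exons. Of the 71 member clusters with probe sets under their symbol, 5 (7.04%) were equal to a single probe set within 0.001 on all 15 arrays, against 2.05% of 14034 clusters. They were ATP5PD, the peripheral stalk subunit d gene, COX7A2, NDUFB3, SDHC and SDHD. In 8 member clusters (11.3%, against 1.35%) the median of the gene's probe sets was more than 2 log2 units above the cluster. They include 2 of the genes called against control, ATP5MC1, which averaged 5.91 as a cluster and 8.16 as the median of its probe sets, and ATP5MC2, which averaged 6.81 and 10.13. The other 6 were ATP5PB, ATP5PD, COX7A2, NDUFAF2, SDHC and SDHD. ATP5PB, the peripheral stalk subunit b gene, averaged 1.93 as a cluster and 7.99 as the median of 11 probe sets, and SDHD averaged 2.04 and 8.19 on the same scales. The ATP5PB cluster is below the 40th percentile, so its changes carry no fold. COX7A2 has 2 clusters, which were both set against the same probe sets.

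**Figure D5:**
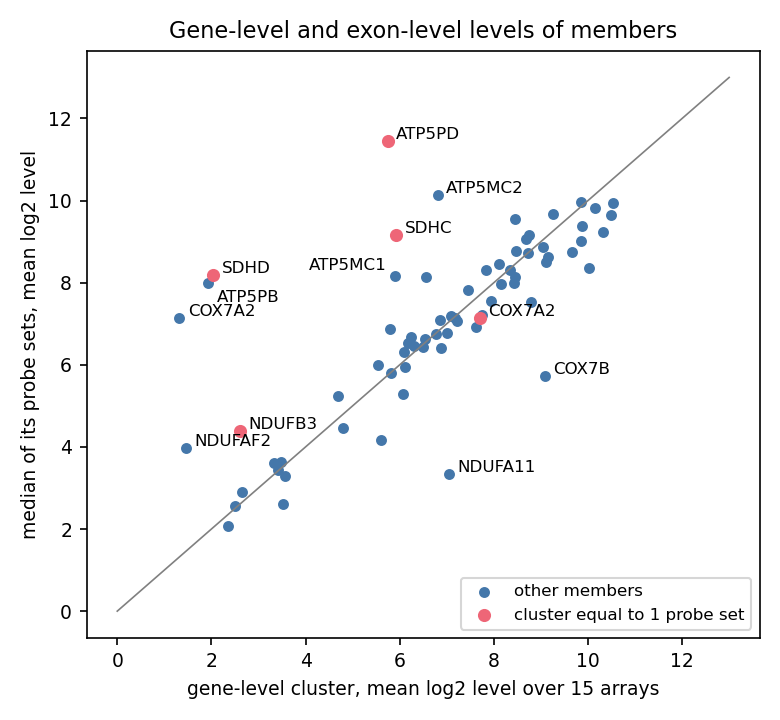
Mean log2 level over 15 arrays of each member's gene-level cluster (horizontal axis) against the median of its exon-level probe sets (vertical axis), with the line of equality. Red points are the 5 clusters equal to 1 probe set. ATP5PB, SDHD and ATP5PD lie far above the line, and COX7B and NDUFA11 lie below it.

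Among single probe sets, limma called 1 of the 582 lower in siNELF-A, against 0.556% of all 287329, and 1 lower in siNELF-C, against 0.969%. It called 0 lower in siNELF-B, against 0.157%, with 186 lower at an unadjusted p below 0.05 (32%, against 17.2% of all probe sets). It called 0 lower in siNELF-E, against 1.35%, with 10 lower at an unadjusted p below 0.05 (1.72%, against 7.46%). Exon usage compares each probe set with the remaining probe sets of the same gene, and limma's diffSplice could test it on 476 member probe sets of 59 genes. In siNELF-B 5 of the 476 were called (1.05%), against 0.853% of all 153781 probe sets tested. It called 0 in siNELF-A, against 0.21%, with 14 at an unadjusted p below 0.05 (2.94%, against 5.26% of all tested). It called 0 in siNELF-C, against 0.553%, with 28 unadjusted (5.88%, against 7.56%), and 0 in siNELF-E, against 0.133%, with 6 unadjusted (1.26%, against 3.51%). The lowest adjusted p values were those of probe sets in COX8A, at -1.51 (adjusted p = 0.014), and in NDUFA12, at -2.38 (adjusted p = 0.0149). The others lay in NDUFS7 at -1.44, ATP5F1D at 1.17 and ATP5PO at 1.91. Without siNELF-B array 1 the siNELF-B count was 2, without array 2 it was 91 and without array 3, control array 1 or control array 3 it was 0. It was 1 without control array 2 and between 2 and 4 without each of the others. In siNELF-A it was 4 without siNELF-B array 3. In siNELF-C it was 15 without siNELF-B array 2 and 19 without array 3. The share of all tested probe sets called was not taken with arrays left out. These counts therefore do not compare the members with other genes.

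Pairs of knockdowns were also set against each other, as contrasts of the same model over 15 arrays. Among the zeros below, limma's count at an unadjusted p below 0.05 was 0 higher in siNELF-B against siNELF-A (4.86% of all clusters), 1 higher in siNELF-C against siNELF-A (6.22%) and 0 lower in siNELF-E against siNELF-B (5.67%). It was 1 lower in siNELF-E against siNELF-C (7.34%) and 5 lower in siNELF-E against siNELF-A (6.81%). In siNELF-B against siNELF-A, 18 of 72 members (25%) were lower, against 3.46% of all clusters, and 0 were higher, against 0.818%. After quantile normalization 14 were lower, against 4.65% of all clusters, and 13 of the 15 calls in either direction were among the 18. All 30 bright members of complex I and all 5 of complex III lay below 0 in this comparison, against 64.9% of all bright clusters. Without siNELF-B array 1 or array 3, 29 of the 30 did, against 64.8% and 55.2% of all bright clusters. Without array 2 all 30 did, against 69.9%. NDUFAF1, an assembly factor of complex I, had 4.74, 6.43 and 4.02 on siNELF-B arrays, against 7.29, 6.94 and 7.12 on siNELF-A arrays. The groups did not overlap, and the difference was -2.06 (SE 0.427, adjusted p = 0.0201), or -2.74 without siNELF-B array 2 (adjusted p = 3.62e-05). The NDUFAF1 call was lost without siNELF-B array 1 or any 1 siNELF-A array (limma adjusted p from 0.0511 to 0.0902). Without siNELF-B array 1 the count was 1, and without siNELF-A array 1 or array 2 it was also 1. Without siNELF-B array 2 it was 42, against 19.5% of all clusters, and without each of the others it was between 6 and 9.

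NDUFAB1, the mitochondrial acyl carrier protein and a subunit of complex I, averaged 6.95 ± 0.93 on siNELF-B arrays, with 6.00 the lowest and 7.86 the highest, against 8.31, 8.43 and 8.58 on siNELF-A arrays (SD, n = 3). The groups did not overlap. It differed by -1.49 (SE 0.344, adjusted p = 0.0315), or by -1.94 without siNELF-B array 2 (adjusted p = 0.000405). The NDUFAB1 call was lost without siNELF-B array 1 or any 1 siNELF-A array. ATP5MJ, a small subunit of the ATP synthase, differed by -1.44 (adjusted p = 0.0469), or by -1.97 without siNELF-B array 2 (adjusted p = 0.00034). Without any other single array the ATP5MJ call was lost. NDUFA9, an accessory subunit near the ubiquinone site, differed by -1.43 (adjusted p = 0.0389), or by -1.90 without siNELF-B array 2 (adjusted p = 0.000453). The NDUFA9 call was also kept without siNELF-B array 3, at -0.89 (adjusted p = 0.0201), and lost without any other single array. The remaining calls among the 18 ran from -1.20 for NDUFAF4 to -0.60 for ATP5F1D.

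In siNELF-C against siNELF-A, 3 members (4.17%) were lower, against 1.66% of all clusters, and 0 were higher, against 1.21%. NDUFAB1 had 7.05, 6.80 and 7.13 on siNELF-C arrays, against 8.31, 8.43 and 8.58 on siNELF-A arrays, a difference of -1.44 (SE 0.344, adjusted p = 0.0407). That call was kept without siNELF-B array 2 or 3 and lost without any other single array. COX5B had 6.54, 6.65 and 6.38 on siNELF-C arrays, against 7.33, 7.61 and 7.18 on siNELF-A arrays, a difference of -0.85 (SE 0.186, adjusted p = 0.0285). The COX5B call was lost without siNELF-A array 1 or 2 or any 1 siNELF-C array. ATP5MC1 differed by -0.70 (SE 0.14, adjusted p = 0.0189), a call lost without siNELF-A array 2 or 3 or siNELF-C array 1 or 3. None of the 3, which were named for their calls, overlapped between the groups. The share of all clusters without overlap was not taken. On the median of probe sets, ATP5MC1 passed at -1.07 (limma adjusted p = 0.016). NDUFAB1 at -0.76 (adjusted p = 0.0753) and COX5B at -0.54 (adjusted p = 0.527) did not. Without siNELF-A array 2, or siNELF-C array 1 or 3, the count of called members was 0, and without siNELF-A array 1 or siNELF-C array 2 it was 1. Without siNELF-B array 2 or 3 it was 14 or 17. Without siNELF-B array 2, 4.89% of all clusters were lower and 2.18% higher.

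In siNELF-E against siNELF-B, 7 members (9.72%) were higher, against 5.74% of all clusters, and 0 were lower, against 1.16%. NDUFAF1 had 6.67, 6.78 and 6.90 on siNELF-E arrays, against 4.74, 6.43 and 4.02 on siNELF-B arrays, a difference of 1.72 (SE 0.427, adjusted p = 0.0315), or 2.40 without siNELF-B array 2 (adjusted p = 3.73e-05). That call was lost without siNELF-B array 1 or 3 or any 1 siNELF-E array (limma adjusted p from 0.0642 to 0.111). NDUFB10, an accessory subunit of the membrane arm, differed by 1.19 (adjusted p = 0.0223) and NDUFB5 by 1.00 (adjusted p = 0.0322). Without siNELF-B array 2 these were 1.49 (adjusted p = 0.000818) and 1.37 (adjusted p = 0.000109). Both calls were lost without any 1 siNELF-E array, and the NDUFB5 call also without siNELF-B array 1 or 3. The count was 39 without siNELF-B array 2, against 23.2% of all clusters, and 0 or 1 without siNELF-B array 1 or any 1 siNELF-E array. In siNELF-E against siNELF-C, 2 were higher (2.78%), against 3.59%, of which ATP5MC1 differed by 0.70 (adjusted p = 0.0116) and ATP5PB is dim, and 0 were lower, against 1.59%. Without siNELF-C array 1 that count was 0, without siNELF-E array 1 or 2 it was 1, and without siNELF-B array 2 or 3 it was 10 or 11. Without siNELF-B array 2, 7.36% of all clusters were higher and 2.58% lower in that pair. In siNELF-E against siNELF-A, 1 was higher (1.39%), the dim ATP5PB, against 2.56%, and 0 were lower, against 1.49%. The count was 0 without each of 10 arrays (control array 1, siNELF-A arrays 1 and 2, siNELF-B array 1, and each array of the siNELF-C and siNELF-E groups). It was 2 when array 3 of siNELF-A or of siNELF-B was left out. In siNELF-C against siNELF-B 0 were called in either direction, against 1.6% of all clusters higher and 0.536% lower, with 10 higher (10%) and 0 lower (4.54%) at an unadjusted p below 0.05. Without siNELF-B array 2 that comparison had 16 members higher, against 12.1% of all clusters, and 0 lower, against 1.01%.

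Lists of related genes were read beside the members with the same calls. Of 38 measured assembly factors, 7 of them members, 7 fell in siNELF-B (18.4%, against 4.19% of all clusters) and 4 in siNELF-C (10.5%, against 5.3%). In siNELF-E 2 fell (5.26%, against 4.04%) and 1 rose, and in siNELF-A 1 fell (2.63%, against 2.83%). UQCC2, an assembly factor of complex III, fell in the average by 0.73 on the log2 scale (adjusted p = 0.00417) and in siNELF-A by 1.09 (adjusted p = 0.00172). In a list of 4 measured electron carriers and further subunits, of which ATP5IF1 and ATP5MJ are also members, CYC1, the cytochrome c1 subunit of complex III, fell in siNELF-B by 1.03 (adjusted p = 0.0118) and in siNELF-C by 0.85 (adjusted p = 0.0142). Its change in siNELF-A was -0.01. Of 15 regulators of mitochondrial biogenesis limma called 0 in each knockdown, with between 1 and 3 lower at an unadjusted p below 0.05.

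Of 17 measured genes of the tricarboxylic acid cycle, 3 fell in siNELF-B (17.6%, against 4.19% of all clusters) and 1 in siNELF-E (5.88%, against 4.04%). DLAT, a subunit of pyruvate dehydrogenase, fell by 1.42 in siNELF-E (adjusted p = 0.00702). Of 22 glycolysis genes, 3 (13.6%) fell in siNELF-A, against 2.83% of all clusters, and 3 each fell in siNELF-B and siNELF-E, against 4.19% and 4.04%. PFKP, the platelet form of phosphofructokinase, fell by 1.64 in siNELF-E (adjusted p = 0.000207), by 1.26 in siNELF-B (adjusted p = 0.00597) and by 0.84 in siNELF-A (adjusted p = 0.0272). HK1, which phosphorylates glucose, fell by 1.21 in siNELF-A (adjusted p = 0.0061). The median change of the glycolysis list in siNELF-A was -0.27, against 0.15 over the 72 members and -0.03 over all clusters.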

How the data were processed

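The submitters deposited 2 tables of log2 values, 1 at gene level (22011 clusters) and 1 at exon level (287329 probe sets), for the same 15 arrays. Per the labels, these are RMA values that the authors made with ArrayAssist for core exons on genome build hg18, and its version is not given in the sources used here. The deposited log2 values were used as they stand, and all sample columns were used. Groups and replicate numbers come from the labels. Gene symbols come from the platform annotation, updated through a current RefSeq table, where 14432 clusters had 1 symbol, 2408 had several and 5171 were not listed. No cluster coordinates are printed. All 15 arrays entered 1 linear model with 5 group means fitted in R 4.3.3 with limma 3.58.1 (lmFit and eBayes), and p-values were adjusted over all clusters (Benjamini-Hochberg) within each contrast. For exon usage (diffSplice), probe sets had to reach the 25th percentile of mean levels and genes the 40th. The 3 arrays of a group limit the precision. Both scripts were tested on simulated data.

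Members, gene lists, tests and alternatives were chosen with earlier results of these data known, and lists are described by counts only. Values per array are given for called members (up to 4 per knockdown and direction and per pair), for the members with the smallest and largest average change in each complex, and for others named beside them. From the other lists, called genes are named by size of change, and some were chosen after their values were seen. Alternatives were other scalings, array weights, exon medians, filters, single arrays left out and a replicate block. Replicate numbers did not pair the arrays.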

Additional observations from a re-analysis of the deposited data

Results flagged for a closer look

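Between knockdowns, limma's test of the difference itself called 31 differences of members. Given here are 14 of them, for each pair of knockdowns the largest, up to 4. In siNELF-B against siNELF-A, the differences were -2.06 for NDUFAF1, -1.49 for NDUFAB1, -1.44 for ATP5MJ and -1.43 for NDUFA9. In siNELF-C against siNELF-A, they were -1.44 for NDUFAB1, -0.85 for COX5B and -0.70 for ATP5MC1. In siNELF-E against siNELF-B, they were 1.72 for NDUFAF1, 1.19 for NDUFB10 and 1.00 for NDUFB5. In siNELF-E against siNELF-C, it was 0.70 for ATP5MC1. The ATP5PB cluster is dim, so its log2 differences are no measure of fold: 0.98 in siNELF-E against siNELF-B, 1.24 against siNELF-C and 0.94 against siNELF-A. The median of its exon-level probe sets differed by 1.40, 1.18 and 0.10 in the same order, and none passed (adjusted p = 0.123, 0.246 and 0.967). In the comparisons that involve siNELF-B, the 3 siNELF-B arrays lay far apart. The NDUFAF1 difference between siNELF-E and siNELF-B was 1.20 without siNELF-B array 3 (adjusted p = 0.0642). The part of that spread in these results was not tested.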

How the results depend on the processing

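No called change of a named member turned its direction under the alternatives. Since a scaling moves all clusters together, the members' median was read against that of all clusters. Those sets are not matched for level. On the deposited scale siNELF-B had -0.44 for members against -0.14, and siNELF-C had -0.23 against -0.08. Among bright clusters only, these were -0.48 against -0.39 and -0.29 against -0.23. The bright medians were 0.19 against -0.12 in siNELF-A and 0.06 against -0.06 in siNELF-E. Over all levels, the members' median lay above that of all clusters in siNELF-A and siNELF-E and below it in siNELF-B. This held under each scaling and with array width as a covariate. In siNELF-C the members' median lay below that of all clusters except with array width as a covariate (0.05, against 0.02). In the average it lay below it as deposited (-0.15, against -0.08) and above it after quantile normalization (0.08, against 0.05) and with array width as a covariate (0.11, against 0.01). Many counts of called members moved by over 1.5 times, and these follow, with the count as reported in brackets. They count members alone, while the share of all clusters called moved as well. Lower calls in siNELF-B took in 4.19% of all clusters as reported, 2.14% after quantile normalization and 1.58% after centring on 75th percentiles. Without siNELF-B array 2 the share was 30.3%. Higher calls in siNELF-A took in 0.495%, 1.59% and 1.87% under the first 3 of these settings. The counts alone do not set the members apart. After quantile normalization there were 0 lower in siNELF-A (1), 0 lower in siNELF-B (2), 10 higher in siNELF-A (2), 1 higher in the average (0), 4 called in siNELF-E against siNELF-C (2), 4 called in siNELF-E against siNELF-A (1), 6 called in siNELF-C against siNELF-A (3). With arrays centred on their 75th percentiles there were 0 lower in siNELF-A (1), 0 lower in siNELF-B (2), 10 higher in siNELF-A (2), 2 higher in the average (0), 5 called in siNELF-E against siNELF-C (2), 4 called in siNELF-E against siNELF-A (1), 6 called in siNELF-C against siNELF-A (3). With the replicate number as a block (replicate block) there were 0 lower in siNELF-A (1), 0 lower in siNELF-B (2), 1 higher in siNELF-A (2), 0 called in siNELF-E against siNELF-A (1), 7 called in siNELF-B against siNELF-A (18), 2 calls for exon usage in siNELF-B (5). On the median of exon-level probe sets there were 2 lower in siNELF-A (1), 4 lower in siNELF-B (2), 3 lower in siNELF-C (0), 2 lower in the average (0), 0 higher in siNELF-A (2), 0 higher in siNELF-E (1), 1 called in siNELF-C against siNELF-A (3), 11 called in siNELF-B against siNELF-A (18). With arrays centred on their medians there were 0 lower in siNELF-B (2), 1 lower in siNELF-C (0), 5 higher in siNELF-A (2), 4 called in siNELF-E against siNELF-C (2), 3 called in siNELF-E against siNELF-A (1), 9 called in siNELF-C against siNELF-A (3), 12 called in siNELF-E against siNELF-B (7). With array width (interquartile range) as a covariate there were 0 lower in siNELF-B (2), 15 higher in siNELF-A (2), 9 called in siNELF-E against siNELF-A (1), 10 called in siNELF-C against siNELF-A (3), 2 called in siNELF-E against siNELF-B (7). With array weights there were 28 lower in siNELF-B (2), 6 lower in siNELF-C (0), 1 lower in the average (0), 5 higher in siNELF-A (2), 1 higher in siNELF-B (0), 1 higher in siNELF-C (0), 3 higher in siNELF-E (1), 16 called in siNELF-E against siNELF-C (2), 4 called in siNELF-E against siNELF-A (1), 22 called in siNELF-C against siNELF-A (3), 41 called in siNELF-B against siNELF-A (18), 11 called in siNELF-C against siNELF-B (0), 30 called in siNELF-E against siNELF-B (7). Without clusters below the 25th percentile there were 5 lower in siNELF-B (2), 0 called in siNELF-E against siNELF-A (1). Without siNELF-B arrays 2 and 3, where siNELF-B is 1 array assumed to vary like the other groups, there were 20 lower in siNELF-B (2), 7 lower in siNELF-C (0), 1 lower in the average (0), 6 higher in siNELF-A (2), 1 higher in siNELF-B (0), 17 called in siNELF-E against siNELF-C (2), 2 called in siNELF-E against siNELF-A (1), 20 called in siNELF-C against siNELF-A (3), 29 called in siNELF-B against siNELF-A (18), 7 called in siNELF-C against siNELF-B (0), 28 called in siNELF-E against siNELF-B (7). With subunit genes only there were 1 lower in siNELF-B (2). Without the intensity filter there were 2 calls for exon usage in siNELF-B (5). With each array left out in turn the counts ran from 0 to 1 lower in siNELF-A (1), from 0 to 34 lower in siNELF-B (2), from 0 to 6 lower in siNELF-C (0), from 0 to 1 lower in the average (0), from 0 to 4 higher in siNELF-A (2), from 0 to 2 higher in siNELF-B (0), from 0 to 2 higher in siNELF-E (1), from 0 to 11 called in siNELF-E against siNELF-C (2), from 0 to 2 called in siNELF-E against siNELF-A (1), from 0 to 17 called in siNELF-C against siNELF-A (3), from 1 to 42 called in siNELF-B against siNELF-A (18), from 0 to 16 called in siNELF-C against siNELF-B (0), from 0 to 39 called in siNELF-E against siNELF-B (7), from 0 to 4 for exon usage in siNELF-A (0), from 0 to 91 for exon usage in siNELF-B (5), from 0 to 19 for exon usage in siNELF-C (0), from 0 to 1 for exon usage in siNELF-E (0), from 0 to 7 for exon usage in the average (0). The siNELF-B arrays share in the estimate of spread behind every count. Beyond that, the cause of these moves was not tested. Replicate numbers did not pair the arrays: of 30 correlations between same-numbered arrays, 3 were over 0.1, and 2 of 15 arrays correlated best with their own number. The block and the left-out arrays for exon usage, and the siNELF-B medians without 1 array, were added after seeing the data. 3 arrays per group, and adjusted p-values close to the threshold, limit what single calls can carry.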
